A study of Homo sapiens with 6 samples.

Results

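TRIM22 and IFIT1 are a pair of interferon-induced genes whose levels lay on opposite sides after depletion of squalene epoxidase (SQLE) in RKO cells. Both were taken by name from the deposited expression table, so the members are 2 of its 500 genes. The cells were RKO, a human line established from a colorectal carcinoma, and RNA was sequenced in 6 libraries. The 3 shNT libraries, labelled wild type and shControl, came from cells with a non-targeting small hairpin RNA (shRNA), and the 3 shSQLE libraries came from cells with an shRNA against SQLE. Libraries were numbered 1 to 3 in each group. The series' design text speaks of duplicates, whereas 3 libraries per group are labelled, and n counts the labelled libraries. The labels do not say which SQLE hairpin was used, or whether numbered libraries came from separate cultures, so the spread between them may be technical. The labels name no 5-FU, whereas the study's text places the comparison after 5-FU treatment, so the drug status of these cells is not settled here. All results concern 1 cell line.

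Interferons are secreted proteins that cells release on sensing viral nucleic acid. They bind cell-surface receptors, activate the JAK kinases and the STAT transcription factors, and switch on genes that carry an interferon-stimulated response element (ISRE) in their promoters. TRIM22 encodes an E3 ubiquitin ligase of the tripartite motif family that restricts several viruses, and it is also a known target of the tumor suppressor p53. IFIT1 encodes a tetratricopeptide repeat protein that binds viral RNA lacking the 2′-O-methyl mark of the host cap and blocks its translation. Epithelial cells usually hold little IFIT1 mRNA until interferon signalling or double-stranded RNA induces it.

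TRIM22 lies on the plus strand of chromosome 11 of GRCh38, from 5689689 to 5737089, and IFIT1 on the plus strand of chromosome 10, from 89392546 to 89406486. The RefSeq promoter table matched 1 of the 2 members, IFIT1. Its promoter is shown because it holds the element through which interferon acts on this gene. The window is chr10:89392373-89392672 of GRCh38.p14, plus strand, and holds the 250 bases before the RefSeq transcription start and the 50 bases from it onward. That start lies downstream of the first base of the gene in GENCODE given above. The capitals mark matches to the ISRE core, searched on both strands as GAAA, any 2 bases, GAAA, which reads TTTC, any 2 bases, TTTC on the other strand.
IFIT1 promoter: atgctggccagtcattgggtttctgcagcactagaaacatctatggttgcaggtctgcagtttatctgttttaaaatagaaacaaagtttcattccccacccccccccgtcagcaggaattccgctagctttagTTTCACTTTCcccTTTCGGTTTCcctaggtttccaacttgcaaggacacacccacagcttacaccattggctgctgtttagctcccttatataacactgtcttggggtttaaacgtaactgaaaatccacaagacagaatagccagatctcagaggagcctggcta

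The IFIT1 window held 2 ISRE cores. They began 116 and 103 bases before the start site, did not overlap, and were separated by 3 bases. An ISRE core was present in 3.57% of the 35114 promoters of the same length. Neither the gamma-activated site TTCNNNGAA, nor TATAAA, nor the NF-κB consensus, nor the p53 half-site was found on either strand of this window. For the TATA box only the exact letters TATAAA were searched, so other forms of it, such as the tatataa in this window, are not covered. A match to letters is a description and says nothing about binding in RKO cells.

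The table gives pseudo-counts, which are read counts moved to a common library size by the authors. Whole reads could be recovered from all 3000 values, and they summed to between 117410 and 233404 per library over the 500 genes. Total depth stays unknown. The table holds only genes past the authors' thresholds on these same libraries, and genes outside it are not analysed here. SQLE, the target of the hairpin, had pseudo-counts of 6926 to 6976 in shNT and 296.4 to 307.2 in shSQLE, or 4.35% of the shNT level. The lists of 6 epithelial, 6 leukocyte and 6 fibroblast markers had 0 members in the table, so the labelled cell type could not be checked. In bulk RNA, fewer cells with a transcript and less of it per cell cannot be told apart.

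TRIM22 was close to 9-fold lower in shSQLE. Its pseudo-counts were 154.3, 130.0 and 118.5 in shNT libraries 1 to 3 and 12.55, 14.71 and 18.46 in shSQLE libraries 1 to 3. Every shSQLE library lay far below every shNT library, and the groups did not overlap. Mean TRIM22 was 134.3 ± 18.3 pseudo-counts with shNT (SD, n = 3) and 15.24 ± 2.99 with shSQLE (SD, n = 3). The shSQLE mean thus stood at 11.4% of the other, a ratio of 8.81. Even the nearest libraries of the 2 groups differed 6.42-fold. On the log2(pseudo-count + 1) scale the difference was -3.07 (standard error 0.243). No p-value is given for either gene, because both were chosen on this contrast.

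IFIT1 stood the other way. Its pseudo-counts were 36.08, 49.42 and 32.28 in shNT libraries 1 to 3 and 124.8, 120.4 and 140.9 in shSQLE libraries 1 to 3. The lowest shSQLE library was 2.44-fold above the highest shNT library, so here too the groups did not overlap. Mean IFIT1 was 39.26 ± 9.0 pseudo-counts with shNT (SD, n = 3) and 128.7 ± 10.8 with shSQLE (SD, n = 3), a ratio of 3.28. On the log2(pseudo-count + 1) scale the difference was 1.71 (standard error 0.215). Both members passed the filter on low values. Of the 473 genes that passed it, 427 had shNT and shSQLE libraries that did not overlap (90.3%), so the lack of overlap is shared with most of the table.

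**Figure D1:**
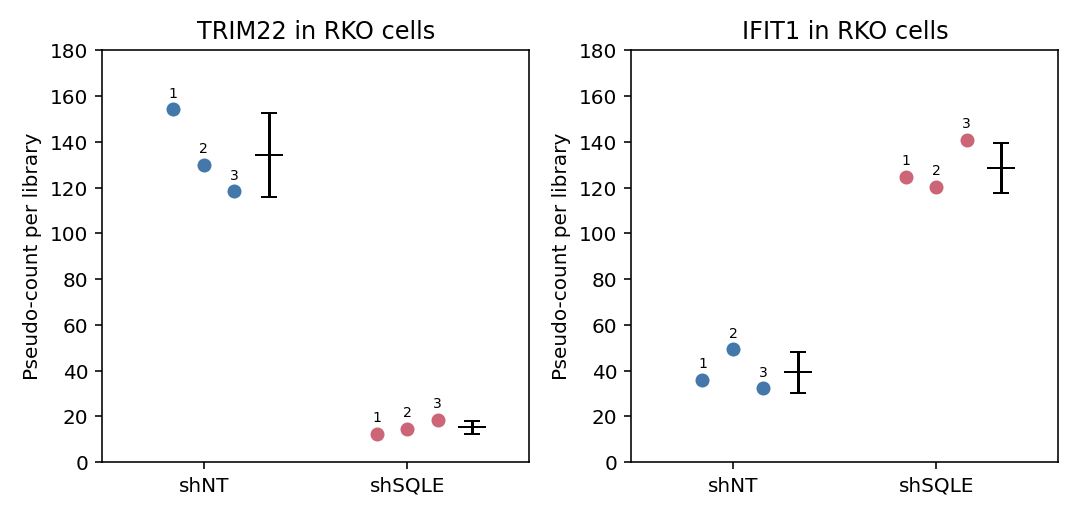
Pseudo-counts of TRIM22 (left) and IFIT1 (right), on a linear axis from 0, in each shNT and shSQLE library. Points are libraries with their replicate number, and the black mark with its bar is the mean ± SD (n = 3). TRIM22 sits at 118.5 to 154.3 in shNT and at 12.55 to 18.46 in shSQLE, and IFIT1 at 32.28 to 49.42 and 120.4 to 140.9.

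The reads behind these values set how firmly each level is known. For TRIM22, 154, 120 and 135 reads stood behind the shNT values and only 14, 16 and 15 behind the shSQLE values. The shSQLE libraries thus held nearly the same number of TRIM22 reads, and the highest pseudo-count belonged to replicate 3, the smallest library of the series. The coefficient of variation of the 3 TRIM22 pseudo-counts was 13.6% in shNT, where counting error alone gives 8.61%, and 19.6% in shSQLE, where it gives 25.9%. For IFIT1 the shNT values rested on 36, 46 and 37 reads and the shSQLE values on 138, 131 and 113. Its coefficient of variation was 22.9% in shNT, where counting error alone gives 16%, and 8.37% in shSQLE, where it gives 8.89%. The largest library size exceeded the smallest by a ratio of 1.42.

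Because the 2 genes were measured in the same libraries, their ratio depends little on how a library was scaled. The log2 difference TRIM22 minus IFIT1 was 2.07, 1.38 and 1.84 with the control hairpin and -3.21, -2.95 and -2.87 with the SQLE hairpin. This difference, not corrected for gene length, was above 0 in each shNT library and below 0 in each shSQLE library. On average this difference was 1.76 ± 0.352 with shNT (SD, n = 3) and -3.01 ± 0.182 with shSQLE (SD, n = 3), so the balance between the genes moved by -4.77 on the log2 scale. The genes were chosen because they move in opposite directions, so the direction of this shift was fixed by the choice. Per kilobase of annotated exon, the TRIM22 level was 3.28, 2.02 and 2.81 times that of IFIT1 in shNT libraries 1 to 3, and the IFIT1 level was 13.0, 10.7 and 9.96 times that of TRIM22 in shSQLE libraries 1 to 3.

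**Figure D2:**
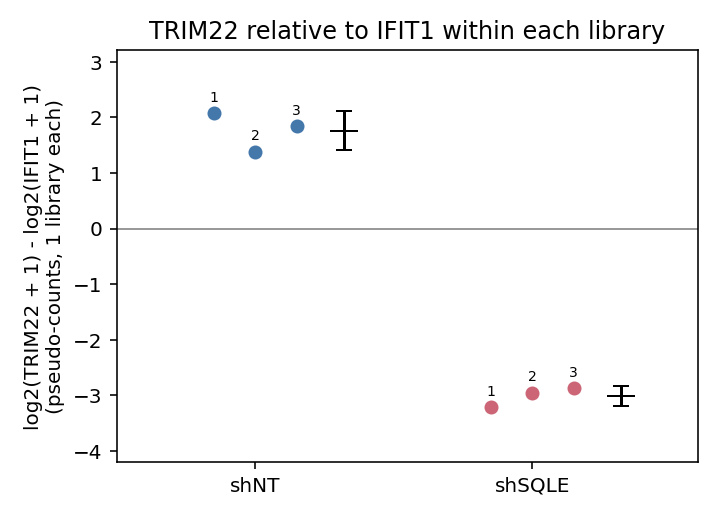
Log2(pseudo-count + 1) of TRIM22 minus that of IFIT1 within each library, with 0 marking equal values. Points are libraries with their replicate number, and the black mark with its bar is the mean ± SD (n = 3). The shNT libraries lie between 1.38 and 2.07 and the shSQLE libraries between -3.21 and -2.87.

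The levels of the 2 genes were also averaged per kilobase. With all annotated exons as the length (6.02 kb for TRIM22 and 4.61 kb for IFIT1), TRIM22 had 22.3 ± 3.04 and IFIT1 8.51 ± 1.95 pseudo-counts per kb in shNT (SD, n = 3). In shSQLE the levels were 2.53 ± 0.496 and 27.9 ± 2.34 pseudo-counts per kb. The order of the genes was the same with the longest transcript as the length, where TRIM22-201 (2.99 kb) had 44.9 ± 6.13 pseudo-counts per kb in shNT and 5.10 ± 1.0 in shSQLE. Which transcripts RKO cells use is not known from a table of gene values.

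Reads of TRIM22 can in part be shared with another gene. Over all its annotated exons, 642 nt, or 10.7% of the exonic length, coincided with exons of the olfactory receptor gene OR56B1 on the same strand. In the longest transcript, TRIM22-201, 0% of the 50-base words occurred in a transcript of another gene. Other TRIM22 transcripts were not searched. TRIM5, another antiviral ligase of the family, overlaps TRIM22 on the opposite strand but shares 0 exonic bases with it. IFIT1 lies within LIPA, which encodes lysosomal acid lipase on the opposite strand, again with 0 shared exonic bases. For IFIT1, 47 of the 50-base words of transcript IFIT1-202 (1.03%) also occurred in other genes, and 38 of these 47 (0.833% of all its words) were in the neighbouring paralog IFIT1B. The words shared with IFIT1B fall in 2 stretches of exon 3, both within the coding sequence, which are printed because a short read inside them cannot be told from IFIT1B. They lie on chromosome 10 of GRCh38, plus strand, at 89402428 to 89402491 (64 nt) and at 89402935 to 89403006 (72 nt).
IFIT1 stretch 1: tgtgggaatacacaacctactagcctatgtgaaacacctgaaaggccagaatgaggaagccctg
IFIT1 stretch 2: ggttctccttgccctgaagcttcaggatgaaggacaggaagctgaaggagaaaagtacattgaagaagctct

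Among the genes of the table, TRIM22 stood near the lower end and IFIT1 near the middle of the higher genes. Limma, with a mean-variance trend and Benjamini-Hochberg adjustment over the 473 genes, called 340 genes lower (71.9%) and 98 higher (20.7%) in shSQLE, or 92.6% in either direction. A call needed an adjusted p-value below 0.05 together with a log2 fold change of -1 or less, or of 1 or more. TRIM22 ranked 20 of 340 by the size of its decrease, against a median log2 fold change of -1.70 for the genes called lower. IFIT1 ranked 41 of 98 by its increase, against a median of 1.38 for the genes called higher.

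**Figure D3:**
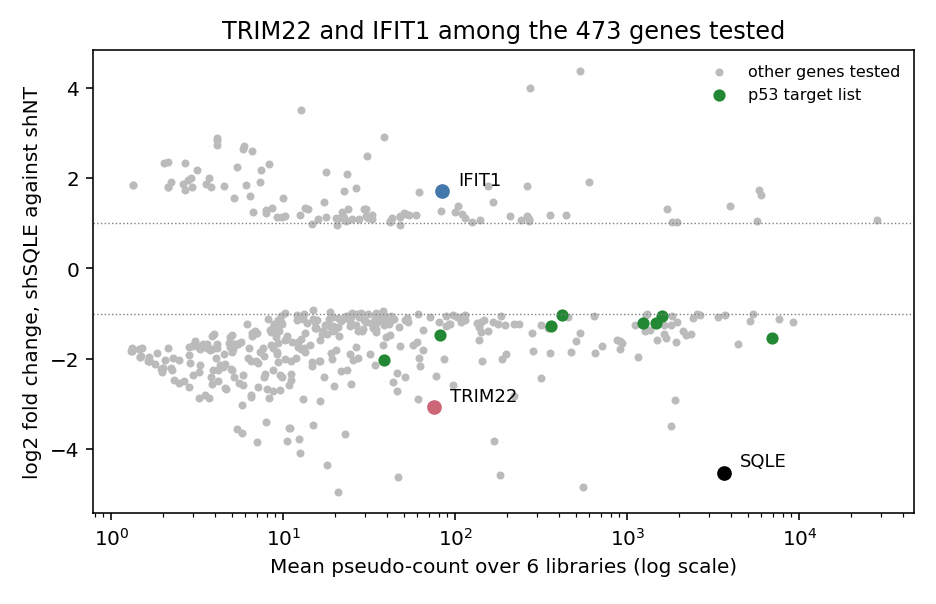
Log2 fold change (shSQLE against shNT) against the mean pseudo-count over 6 libraries on a log scale, for the 473 genes tested. TRIM22 (-3.07), IFIT1 (1.71), the hairpin target SQLE (-4.52) and 8 other members of the p53 target list are coloured, and the dotted lines mark a log2 fold change of -1 and 1. Genes between the dotted lines are few in a table of genes past the authors' thresholds.

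The profile over the 6 libraries closest to that of TRIM22 belonged to HAS2, which encodes a hyaluronan synthase, with a root mean square difference of 0.177 on the log2 scale after centring each gene. The median over the other 472 genes was 1.0. HAS2 was at 3335 ± 216 pseudo-counts with shNT and 443.9 ± 19.1 with shSQLE (SD, n = 3). The myeloid surface receptor gene CD33 was at 0.332. It had 0 reads in each shSQLE library and 11 to 12 in each shNT library, so its likeness depends on the pseudocount. The lymphocyte receptor gene SLAMF7 and the GTPase-activating protein gene ARHGAP29 followed, at 0.339 and 0.348.

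Among the profiles nearest to IFIT1 were those of MAP1LC3C, SLC5A3, KCNJ4 and NDRG1, with root mean square differences from 0.197 to 0.259 against a median of 1.61 over 472 genes. MAP1LC3C encodes an autophagy protein of the LC3 family, and rose from 2212 ± 371 to 5693 ± 244 pseudo-counts (SD, n = 3). SLC5A3, a myo-inositol transporter gene, rose from 2955 ± 81.7 to 9045 ± 437. These 4 genes had groups that did not overlap, as had 90.3% of the genes tested. These distances describe 6 libraries of genes already selected for a group difference.

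Of 120 interferon pathway genes in 8 lists written by role, TRIM22 and IFIT1 were the only 2 in the table (1.67%), both among 54 effectors. Both were taken from the table by name as interferon-induced genes, so their presence was fixed by that choice. The lists are not complete. PYHIN1, an interferon-inducible gene of the table that was called lower on few reads, is not on them. The table holds 2.45% of the 19936 protein-coding genes of GENCODE release 29, but the 1.67% rests on the chosen members alone and is no measure of the lists. The table held 0 of 9 interferon genes, 0 of 6 receptor genes, 0 of 11 genes of the JAK, STAT and IRF signalling step, and 0 of 10 sensors of foreign nucleic acid. It also held 0 of 4 feedback inhibitors, 0 of 13 genes induced mainly by interferon-γ and 0 of 13 genes of class I antigen presentation. IFIT2, IFIT3, IFIT5, ISG15, MX1 and OAS1 are among these and are not analysed here. A gene outside the table cannot be called unchanged, since the study's text counts more changed genes in each direction than the table used here holds. Shares and ranks are among the genes of this table.

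The families gave few relatives. Of 66 protein-coding genes named TRIM with a number in GENCODE release 29, the table held TRIM22 and TRIM67, and of 5 IFIT genes it held IFIT1. Only 1, 6 and 2 reads of TRIM67 were recovered with shNT, and 0 in each shSQLE library. The TRIM-like gene TRIML2 went from 101.8 ± 16.3 to 28.5 ± 4.21 pseudo-counts (SD, n = 3), a log2 difference of -1.80. IFITM10, of a family whose better known members block viral entry, went from 26.13 ± 4.66 to 12.16 ± 4.38 (log2 fold change -1.08). TRIML2 and IFITM10 were named after their values were seen, so no p-value is given.

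TRIM22 also stands on the list of p53 targets. Of 40 such genes 9 were in the table, a larger share than the 2.45% of all protein-coding genes that it holds. The list was written with earlier results of these data known, and this share was not tested. TRIM22 was chosen for its direction, and the 8 others were all called lower, where 71.9% of the genes tested were. The median log2 fold change of these 8 was -1.24, against -1.38 over the 473 genes tested. With genes of at most 3 reads per library in either group set to their bound, the 8 stayed at -1.24 and the median over all genes tested was -1.13, so the order of the 2 medians turned. PLK2, which encodes a polo-like kinase, was at -2.03 (standard error 0.260), beside -3.07 for TRIM22. CDKN1A, the cell cycle inhibitor p21, fell from 9802, 10740 and 10210 pseudo-counts to 3519, 3528 and 3583, a log2 difference of -1.53 with a standard error of 0.0544. SPATA18, CD82, the death receptor gene FAS, BTG2, TP53INP1 and TP53I3 fell less, with log2 fold changes from -1.46 to -1.03. The adjusted p-values of the 8 other genes were at most 0.000181 by limma. These hold only among genes that the authors had selected on the same libraries, so they are no support for the list. The shNT and shSQLE libraries did not overlap for any of the 9 genes, TRIM22 included, as for 90.3% of the genes tested. Without shNT replicate 1, TP53I3 was at -0.97 and no longer called.

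**Figure D4:**
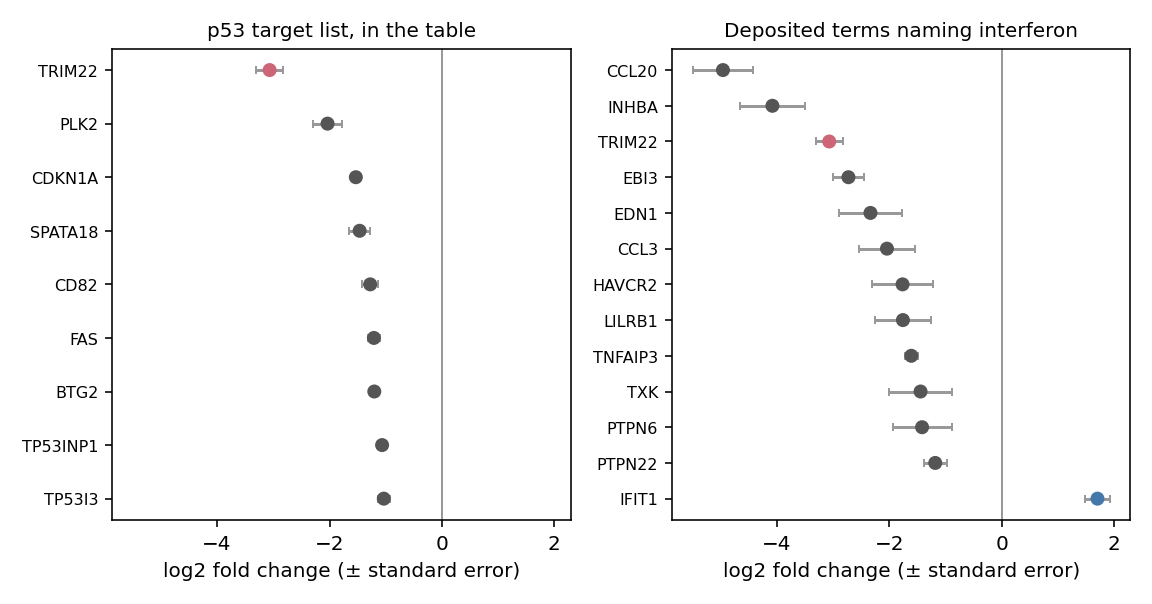
Log2 fold change (shSQLE against shNT, points) with its standard error (bars) for the 9 p53 list members in the table (left) and for the 13 genes whose deposited annotation names interferon (right). TRIM22 is red, at -3.07, and IFIT1 is blue, at 1.71, the only point to the right of 0. CCL20, INHBA, EDN1, CCL3 and HAVCR2 had at most 2 reads in every shSQLE library, so their plotted values depend on the pseudocount.

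The authors deposited Gene Ontology terms with the table, and these were read after the values of the members were known. IFIT1 was the only gene of the table annotated to the type I interferon signaling pathway and to the response to exogenous double-stranded RNA, and TRIM22 the only one annotated to interferon-γ-mediated signaling. The genes shared 1 term, cytosol. Of 13 genes with interferon in a term name, 12 were called lower, where 71.9% of all genes tested were, and 1 higher, where 20.7% were. TRIM22 is among the 12 and IFIT1 is the 1, and both were chosen for these directions. Without the members, 11 of 11 were called lower and 0 higher. The median log2 fold change of the 13 was -1.76, or -1.60 with the 5 genes that had at most 3 reads in every shSQLE library set to their bound, against -1.38 and -1.13 over the 473 genes tested. The terms cover opposite roles, so the group is not a single programme. EBI3 and PTPN22 are annotated to positive regulation of interferon synthesis or secretion, and TNFAIP3 to negative regulation of interferon production. EBI3, a subunit of the cytokines IL-27 and IL-35, fell from 79.9 ± 7.86 to 11.3 ± 2.05 pseudo-counts (SD, n = 3). PTPN22, a phosphatase of lymphocyte signalling, fell from 112.2 ± 22.6 to 48.3 ± 1.57, and TNFAIP3, the NF-κB inhibitor A20, from 753.8 ± 35.5 to 247.9 ± 26.6.

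Of 15 genes with response to virus in a term name, 8 were called lower and 7 higher, TRIM22 and IFIT1 included. Without these members, which were chosen for their directions, 7 of 13 were called lower and 6 higher, against 71.9% and 20.7% of all genes tested. The median log2 fold change of the 15 was -1.0, or 0.00 with 3 genes set to their bound, against -1.38 and -1.13 over all genes tested. The 0.00 is the value of a single gene with few reads, set to no change by its bound, and is not a measured centre. Both medians were the same without the members. With IFIT1, HTRA1, a secreted serine protease, rose from 89.65 ± 15.9 to 188.6 ± 17.1 pseudo-counts, and PDK4, a kinase that inhibits pyruvate dehydrogenase, from 35.69 ± 5.06 to 82.23 ± 6.83 (SD, n = 3). DMBT1, a mucosal scavenger receptor, rose from 30.49 ± 15.4 to 93.33 ± 14. Among the lower genes, HIST1H3E fell from 57.64 ± 14.3 to 25.86 ± 8.47 and HIST1H3H from 81.0 ± 10.8 to 40.06 ± 6.34. HTRA1 is annotated to negative regulation of the response, and PDK4, HIST1H3E and HIST1H3H to positive regulation.

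TRIM22 carried NF-κB annotations that IFIT1 did not. The terms were taken because TRIM22 has them, so it is left out of the counts. Of the 7 other genes annotated to positive regulation of IκB kinase and NF-κB signaling, 6 were called lower (BIRC3, CASP1, HMOX1, HTR2B, IL1A and PLK2) and 1 higher, PELI2, which encodes a Pellino ubiquitin ligase. BIRC3, an inhibitor of apoptosis, had 2292, 2068 and 2781 pseudo-counts in shNT and 841.4, 869.1 and 891.7 in shSQLE. PELI2 had 190.4, 122.0 and 153.3 in shNT and 382.1, 296.9 and 293.9 in shSQLE. The 3 other genes annotated to positive regulation of NF-κB transcription factor activity (AMH, NFKBIA and TRAF1) were called lower. Of the 10 others annotated to protein ubiquitination, the process that TRIM22 serves, 7 were called lower and 3 higher. These shares are to be read against the 71.9% of all genes tested that were called lower.

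The table also holds few genes near either member, as it holds 2.45% of protein-coding genes in general. Of 79 protein-coding genes that start within 1 Mb of the TRIM22 start, the table held HBE1, which encodes ε-globin, 184 kb upstream. HBE1 had 33.07, 17.62 and 28.31 pseudo-counts in shNT and 6.34, 8.38 and 2.84 in shSQLE, so it lay on the same side as TRIM22. Of 19 such genes around IFIT1, the table held FAS, 402 kb upstream. FAS fell from 1829, 1505 and 1841 to 728.3, 681.7 and 822.3 pseudo-counts, the opposite side from IFIT1. The neighbouring paralogs of each member, among them TRIM5, TRIM6 and TRIM34 and IFIT2, IFIT3 and IFIT5, are not analysed here.

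The values of both genes were little affected by how they were computed. With each library left out in turn, the log2 fold change of TRIM22 lay between -3.20 and -2.94 and that of IFIT1 between 1.58 and 1.88. The widest values of IFIT1 came from leaving out shNT replicate 2, which had its highest shNT value, and shNT replicate 3, which had its lowest.

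**Figure D5:**
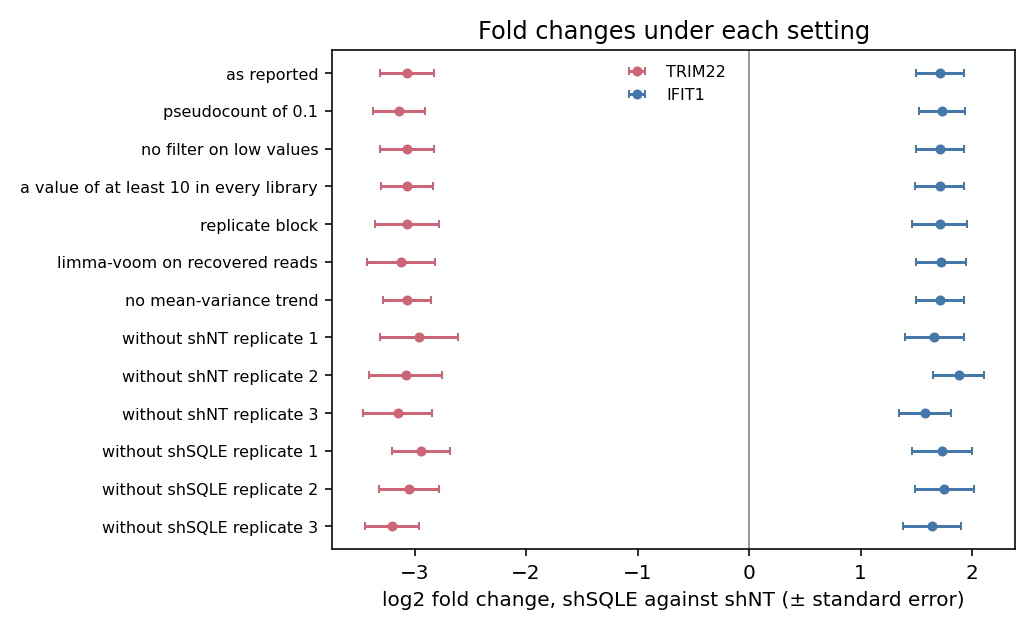
Log2 fold changes (shSQLE against shNT) with standard errors of TRIM22 (red) and IFIT1 (blue), as reported and under each other setting. All values of TRIM22 lie between -3.20 and -2.94 and all values of IFIT1 between 1.58 and 1.88, on opposite sides of 0.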

How the data were processed

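The source was 1 table of 500 genes from RNA-sequencing of 3 shNT and 3 shSQLE libraries of RKO cells. Its deposited signal is a pseudo-count for each gene in each library. The log2 fold change, p-value and adjusted p-value that the authors deposited beside it were not used. The submitters' processing notes name Bowtie 0.12.2 and mm8, a mouse build, while 488 of the 500 rows link to human KEGG entries. The counting, the annotation and the test are not given in the sources used here. Groups and replicate numbers came from the sample labels.

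Whole reads were recovered by fitting library sizes and a dispersion (0.00485) to each group, such that negative binomial quantile matching of the reads to equal library sizes returned all 3000 deposited values within 0.01. Fold changes came from limma 3.58.1 in R 4.3.3 on log2(pseudo-count + 1), with a trended prior variance and no covariate, over the 473 genes that reached a value of 1 in 3 or more libraries. Fold changes on this scale understate those of low genes. The floor for bounds was 3 reads per library. The scripts were tested on simulated data. Adjusted p-values hold among genes that the authors had selected on the same libraries and are not genome-wide.

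The members and the lists were chosen with earlier results of these data known. The genes named were the members, SQLE, list members in the table, TRIM and IFIT relatives, the 5 nearest profiles of each member, of which 1 each is not reported here, and table genes within 1 Mb. Genes named from deposited Gene Ontology terms, TRIML2 and IFITM10 were chosen after their values were seen. Positions and words came from GENCODE 29 on GRCh38 (491 of 500 symbols matched, 206694 transcripts searched), and the promoter from RefSeq on GRCh38.p14. The authors' build may differ. Other steps ran in Python 3.11.15 (SciPy 1.17.1, NumPy 2.4.6, Matplotlib 3.10.9, pandas 2.3.3). Alternatives were another pseudocount, other filters, no variance trend, limma-voom on recovered reads, a stricter threshold, a replicate block and leaving out each library.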

Additional observations from a re-analysis of the deposited data

How the results depend on the processing

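The log2 fold changes of TRIM22 and IFIT1 kept their direction under every setting tried, and each moved by less than the spread between replicates (0.23 for TRIM22 and 0.235 for IFIT1 on the log2 scale). A pseudocount of 0.1 gave -3.14 and 1.73, and limma-voom on the recovered reads gave -3.12 and 1.72. The log2 difference between the genes, -4.77 as reported, lay between -4.97 and -4.62 with each library left out in turn. The counts of called genes moved by more than 1.5 times under 2 settings. Keeping genes that reached 10 in each of the libraries left 193 genes to test, of which 137 were lower and 47 higher in place of 340 and 98. An adjusted p-value under 0.01 gave 203 lower and 52 higher. Leaving out 1 library gave 232 to 295 lower and 71 to 80 higher.

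The groups share replicate numbers, but same-numbered libraries deviated together with correlations across genes of only 0.0806, 0.0416 and 0.0919, and no pairing was assumed. In the fit with a replicate block, TRIM22 stayed at -3.07 and IFIT1 at 1.71, and 333 genes were called lower and 97 higher. The TRIM22 level in shSQLE rests on 45 reads in all over the 3 libraries.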

Other observations

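An ISRE core lay in the promoters of 2 of the 64 genes called higher that had a promoter in the RefSeq table (3.12%), IFIT1 and TDRD6, and in those of 14 of the 233 genes called lower (6.01%). Over all 27303 genes of that table the share was 4.38%. The NF-κB consensus was found for 44 of the 233 genes called lower (18.9%) and 7 of the 64 called higher (10.9%), against 13.3% of all genes. The letters TATAAA were found for 46 of the 233 (19.7%) and 9 of the 64 (14.1%), against 14% of all genes, and the gamma-activated site for 8.15% and 6.25%, against 9.38%. The p53 half-site was found for 10.3% of the genes called lower and 10.9% of those called higher, against 8.06% of all genes. These shares were not tested, and the genes had been selected on the same libraries.

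Some genes with terms related to those of TRIM22 rested on few reads. LILRB1, an inhibitory receptor of immune cells, was seen in 19, 18 and 25 reads with shNT and in 3, 11 and 4 with shSQLE. PYHIN1, an interferon-inducible nuclear protein gene that shares the annotation nuclear speck with TRIM22, was seen in 4, 4 and 2 reads with shNT and 0 with shSQLE.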
